A study of Mus musculus with 4 samples.

Results

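The testis-specific serine kinases were taken as the 6 genes Tssk1 to Tssk6, picked by symbol from the table of 18419 genes, and all 6 were present. The series profiled 27060 single cells in 4 libraries from testes of outbred ICR mice, with a 10x Genomics droplet kit that reads transcripts near the 3′ end and tags each with a unique molecular identifier (UMI), so that UMIs count molecules. Tubules were cut up, washed free of sperm and digested to single cells first. A0 came from untreated controls given water, and A10 from mice given alginate oligosaccharide (AOS, a breakdown product of the seaweed polymer alginate) at 10 mg/kg body weight. B0 came from mice given busulfan, an alkylating anti-cancer drug that kills germ cells, as 1 injection of 40 mg/kg at 3 weeks of age, and BA10 from mice given the same injection and then AOS at 10 mg/kg by gavage. The control and AOS-only mice were of the same starting age, and the sources used here give differing lengths for the AOS dosing. Each library pooled cells of 6 mice, so every group was 1 sample, no test between groups was possible, and all intervals below are 95% intervals that cover counting error only.

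Testis-specific serine kinases belong to the branch of the kinome that also holds AMP-activated protein kinase, and they are made in male germ cells during spermiogenesis, when round haploid spermatids (STs) remodel into sperm. TSSK1 and TSSK2 bind and phosphorylate the scaffold protein TSKS, TSSK4 phosphorylates the tail fibre protein ODF2, and TSSK6 depends on the chaperone HSP90 with its co-chaperone TSACC and is needed for the exchange of histones for protamines. Protamine and transition protein genes (Prm1, Prm2, Tnp1, Tnp2) are transcribed in STs, whereas spermatogonia (SPGs) and early spermatocytes (SPCs) precede them.

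By the GENCODE M21 annotation of mm10, Tssk1 and Tssk2 are neighbours on chromosome 16. Tssk1 (chr16:17894223-17897922, plus strand, 1 exon) ends 714 bases before Tssk2 (chr16:17898637-17900024, plus strand, 1 exon). Tssk3 lies at chr4:129489014-129491022 (minus strand, 2 exons), Tssk4 at chr14:55650184-55652539 (plus strand, 4 exons), Tssk5 at chr15:76371952-76374938 (minus strand, 8 exons) and Tssk6 at chr8:69902184-69903518 (plus strand, 1 exon). Tssk1 lies wholly inside Dgcr2, which is on the opposite strand, and Tssk6 overlaps Yjefn3 by 529 bases and Ndufa13 by 375 bases, again on the opposite strand. Whether the authors' counting used the strand is not given in the sources used here, so UMIs of these partners may not be fully separate. The longest identical stretch between the Tssk1 and Tssk2 transcripts was 113 bases. It lay 807 bases before the end of Tssk2 and at least 818 bases before the end of Tssk1, while their last 300 bases, where 3′ reads mostly fall, shared at most 8 bases in a row. All other pairs shared runs of 9 to 14 bases.

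The 120 bases before the RefSeq start of 4 of the kinases (GRCm38.p6) are printed because they carry the letters that the members did or did not share. Capitals mark an 11-base run common to the neighbours Tssk1 (chr16:17894083-17894202, plus strand) and Tssk2 (chr16:17898517-17898636, plus strand), a CCAAT box in Tssk4 (chr14:55650064-55650183, plus strand) and TGACG, the core of a cAMP response element, in Tssk6 (chr8:69902064-69902183, plus strand).
Tssk1: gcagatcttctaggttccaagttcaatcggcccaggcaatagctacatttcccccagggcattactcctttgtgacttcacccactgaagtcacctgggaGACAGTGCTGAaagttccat
Tssk2: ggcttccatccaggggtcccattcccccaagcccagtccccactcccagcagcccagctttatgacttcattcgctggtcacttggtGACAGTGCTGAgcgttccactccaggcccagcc
Tssk4: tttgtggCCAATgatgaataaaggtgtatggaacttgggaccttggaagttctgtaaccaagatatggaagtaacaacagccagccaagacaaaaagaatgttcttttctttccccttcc
Tssk6: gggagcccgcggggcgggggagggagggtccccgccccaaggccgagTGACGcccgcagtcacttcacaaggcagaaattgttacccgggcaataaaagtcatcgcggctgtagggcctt
The run shared by Tssk1 and Tssk2 began 20 bases before the start of Tssk1 and 33 bases before that of Tssk2. It was the longest run found when all pairs of the 5 windows were searched over the 250 bases before the start. The other pairs shared 7 or 8 bases in a row. Motifs were searched on both strands of the 300-base RefSeq windows, which reach 50 bases past the start. TGACG was found in the window of Tssk6 alone among the 5 kinases with a window, against 20.8% of 32851 windows of all genes. CCAAT was found for Tssk3 and Tssk4, against 37.4% of all windows. None of the 5 windows held TGACGTCA, TATAAA or GTTGCC, which were found in 1.79%, 13.6% and 12.5% of all windows. TGACGTCA holds TGACG within it. A match or its absence describes letters in a window and no binding.

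The B0 library stood apart from the rest. Its cells had a median of 4214 UMIs and none under 2985, against medians of 10948 to 17989 and lowest cells of 6716 to 9013 UMIs in the others. Of its 4659 cells, 448 reached 9013 UMIs, the highest of the lower limits, called the common limit here. Total depth was 150812974 UMIs for A0 and 143714595 for A10, and after busulfan 25323535 for B0 and 91304225 for BA10. Pairs of libraries shared 31 to 135 cell barcodes, at most 1.51% of a library. Clustering without the 6 kinases gave 27 clusters, named from marker genes, of which 3 stayed unnamed. ST-like cells made up 54.5% of A0, 54.2% of A10 and 11.4% of BA10 but only 5 cells of B0, where 63.1% of cells were Leydig-like. Several clusters were nearly all of 1 library, so such a cluster cannot be told apart from its library.

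All 6 kinases were highest in A0, slightly lower in A10, much lower in BA10 and lowest in B0, and for none of them did the counting intervals of 2 libraries overlap. Levels are given as CPM, a gene's UMIs per 1000000 UMIs of the library or group of cells. A kinase level is compared only with levels of the same kinase, while ratios of kinase to Prm1 UMIs are compared between clusters. In such whole-library levels, fewer cells of a type and less RNA per cell cannot be told apart.

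Tssk1, a TSKS-binding kinase, was at 634 CPM in A0 (630 to 638), 557 in A10 (553 to 561), 148 in BA10 (145 to 150) and 77.7 in B0 (74.3 to 81.2). Its partner in TSKS binding, Tssk2, was at 936 CPM in A0 (931 to 941), 797 in A10 (792 to 801), 117 in BA10 (114 to 119) and 64.8 in B0 (61.7 to 68.0). With every cell thinned at random to 2985 UMIs, so that depth was equal, Tssk1 was found in 67.4% of A0 cells, 65.6% of A10 cells, 27.7% of BA10 cells and 6.31% of B0 cells. Tssk2 followed the same order, with 74.0%, 72.7%, 20.5% and 5.13%. Both genes were thus found in most control cells and in a small minority of cells after busulfan alone.

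Tssk3, which the kinase PDPK1 activates, was at 330 CPM in A0 (327 to 333), 295 in A10 (293 to 298), 33.9 in BA10 (32.8 to 35.2) and 19.9 in B0 (18.2 to 21.7). Tssk4 was at 179 CPM in A0 (177 to 181), 158 in A10 (156 to 160), 57.5 in BA10 (55.9 to 59.0) and 33.6 in B0 (31.4 to 36.0). Tssk5 was at 26.2 CPM in A0 (25.4 to 27.1), 22.5 in A10 (21.8 to 23.3), 7.82 in BA10 (7.26 to 8.42) and 5.57 in B0 (4.69 to 6.57). The order of the libraries was the same for each of these genes, but the distance between the controls and the busulfan libraries was largest for Tssk3. After thinning, B0 cells with a UMI were 2.38% for Tssk3, 3.86% for Tssk4 and 0.794% for Tssk5.

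Tssk6, the kinase tied to protamine exchange, was at 486 CPM in A0 (482 to 489), 467 in A10 (463 to 471), 10.7 in BA10 (10.0 to 11.4) and 0.987 in B0 (0.639 to 1.46). The B0 value rested on 25 UMIs in 16 of 4659 cells. After thinning Tssk6 was found in 52.3% of A0 cells, 53.9% of A10 cells, 1.61% of BA10 cells and 0.172% of B0 cells. Relative to its own level in A0, Tssk6 fell furthest of the 6 in both busulfan libraries.

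**Figure D1:**
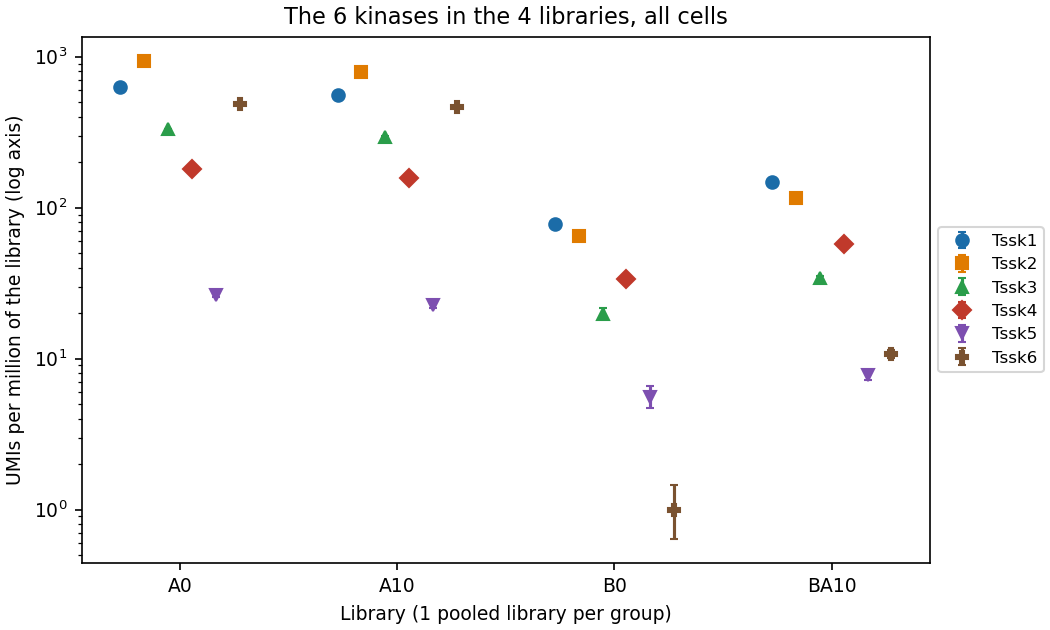
Level of each kinase in the 4 libraries, as CPM of the library (log axis), with points for the libraries and bars for exact Poisson 95% intervals of the UMI sums. Every gene runs A0, A10, BA10, B0 from high to low, and Tssk6 falls from 486 CPM in A0 to 0.987 CPM in B0.

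The UMIs of Tssk1 lay in a smaller share of cells after busulfan. In A0, 1606 cells (18.0%) were enough to hold 50% of the Tssk1 UMIs, whereas 80 cells (1.72%) did so in B0 and 284 cells (7.52%) in BA10. In BA10 the same held for Tssk2 (4.95% of cells, against 18.9% in A0), Tssk3 (5.56% against 16.7%), Tssk4 (7.31% against 14.3%) and Tssk5 (2.51% against 5.92%). For Tssk6 in BA10 and for Tssk2 to Tssk6 in B0 there were too few UMIs after busulfan to reach the share of A0 however they were spread.

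Among control germ cells the kinases differed in where they were highest. The 18323 SPC-like and ST-like cells in clusters with at least 50 cells of both A0 and A10 were ordered from early to late by diffusion pseudotime, built without the kinases and rooted in cluster 7, which had the highest SPC score of them, and cut into 10 equal bins. Tssk5 came first, at 93.1 CPM in bin 6 of A0 and 88.8 in bin 6 of A10. It was 30.6-fold above the first bin and 38.1-fold above the last in A0, so its rise and its fall were both inside the order. Tssk4 was highest in bin 7, at 387 CPM in A0, with bin 6 at 381 and overlapping intervals. By the last bin of A0 it had dropped to 74.0 CPM.

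Tssk1 was also highest in bin 7, at 1161 CPM in A0 and 1068 in A10, and bin 8 did not differ from it beyond counting error. Unlike Tssk4 and Tssk5 it stayed high to the end, at 814 CPM in the last bin of A0. Tssk2 came later, at 2075 CPM in bin 9 of A0 and 1758 in bin 9 of A10, where bin 10 held 1756. Tssk3 and Tssk6 were highest in bin 10, at 980 and 1703 CPM in A0 and at 873 and 1608 in A10. The first bin to reach 50% of the highest was bin 5 for Tssk1 and Tssk4, bin 6 for Tssk2, bin 8 for Tssk3 and bin 9 for Tssk6 in both libraries, and for Tssk5 it was bin 5 in A0 and bin 6 in A10. Peak bins were the same in A0 and A10 for all 6 genes. The order depended on how cells were ranked: along the first principal component, which served as the alternative order, Tssk1 was highest in the last bin, Tssk3 and Tssk6 in bin 8, and Tssk4 in bin 6 together with Tssk5, in both libraries, so that Tssk5 was then not alone in coming first.

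Prm1, the protamine gene used as a late mark, rose from 2397 CPM in bin 1 of A0 to 45913 CPM in bin 9, and the acrosome membrane gene Spaca1 was highest in bin 7, at 947 CPM. Prm1 at 2397 CPM in the earliest bin shows that UMIs of late genes were present in cells of every stage. In A0 the Tssk6 UMIs per 1000 Prm1 UMIs ranged from 44.1 to 79.4 over the SPC-like clusters and from 30.5 to 91.0 over the ST-like clusters. The ratio of Tssk1 to Prm1 was not as steady: it was 29.5 to 319 per 1000 over SPC-like clusters and 4.15 to 446 over ST-like clusters. How much of the low kinase level in early cells was free RNA was not tested.

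**Figure D2:**
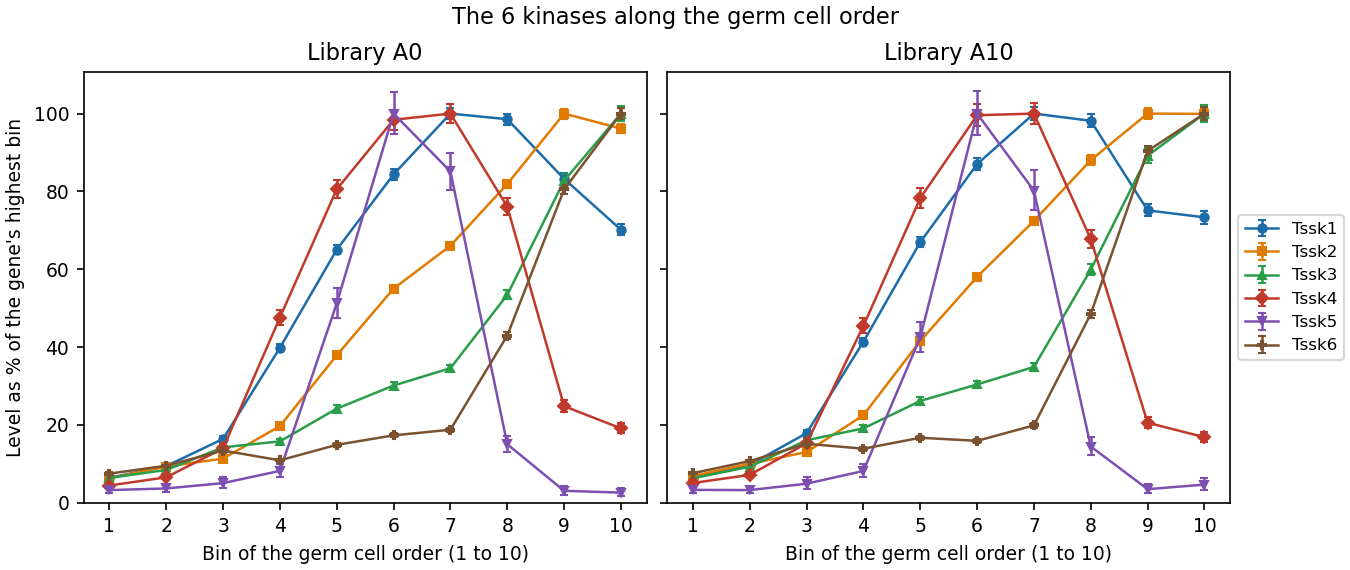
Level of each kinase along the order of control germ cells (x axis, bins 1 to 10 from early to late; y axis, percent of that gene's highest bin), with A0 and A10 in separate panels. Tssk5 peaks in bin 6 and is low at either end, Tssk4 and Tssk1 peak in bin 7, Tssk2 in bin 9, and Tssk3 and Tssk6 climb to bin 10.

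The clusters of A0 gave similar patterns, except that Tssk1 was far lower in the cluster with the most Prm1 than at its highest. Tssk5 was highest in ST-like clusters 3 (115 CPM) and 2 (98.9 CPM), and at 2.6 to 8.3 CPM in ST-like clusters 8, 9, 10 and 12, where Prm1 was at 14511 to 61698 CPM. ST-like cluster 14 went against this, with Prm1 at 18868 CPM and Tssk5 still at 46.8 CPM. Tssk4 had the same top clusters, 412 CPM in cluster 3 and 408 in cluster 2, which did not differ beyond counting error. Tssk1 was at 1208 CPM in cluster 10 and 1198 in cluster 13 but at 256 CPM in cluster 9, the cluster with the most Prm1. Thinned, 44.5% of cluster 9 cells held Tssk1, against 97.9% of cluster 10 cells.

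Tssk2, Tssk3 and Tssk6 stayed high in that Prm1-rich end. Tssk2 was highest in cluster 8 (2526 CPM) and still at 1794 CPM in cluster 9. Tssk3 reached 1172 CPM in cluster 9 and 834 in cluster 8. Tssk6 reached 2068 CPM in cluster 9 and 1492 in cluster 8, and was found in 99.4% and 99.3% of their cells after thinning. In A0 the SPC-like cluster 1 was lowest for each of the 6, with 38.5 CPM for Tssk1, 52.4 for Tssk2, 23.6 for Tssk3, 8.70 for Tssk4, 1.55 for Tssk5 and 47.4 for Tssk6. Cluster 4, whose marker scores were near a tie between SPC (0.290) and ST (0.276), already held 651 CPM of Tssk1 and 288 CPM of Tssk4. The top cluster in A10 was the same as in A0 for all but Tssk1, for which clusters 13 and 10 changed places within counting error.

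**Figure D3:**
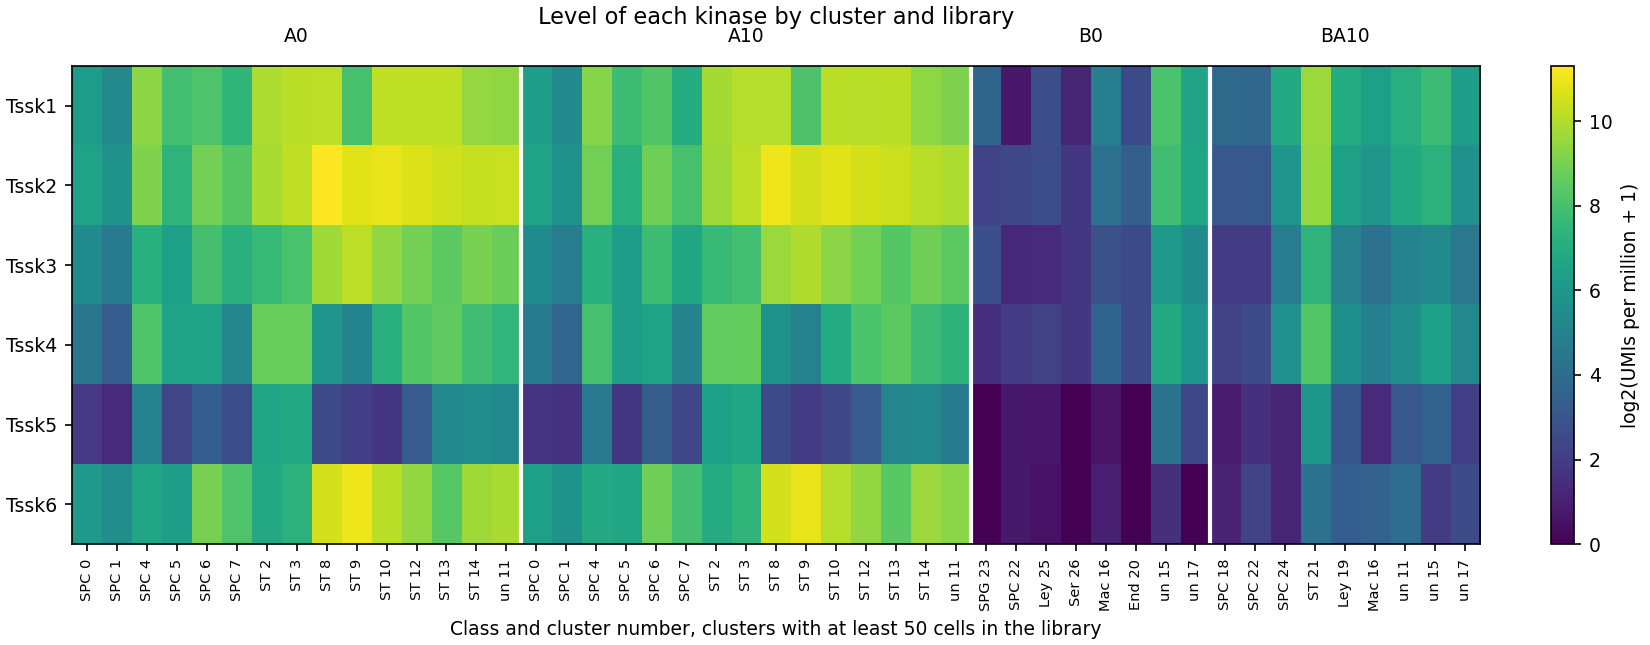
Level of the 6 kinases in every cluster of at least 50 cells in each library, as log2 of CPM plus 1 (colour), with columns grouped by library and cell class (SPG, SPC, ST, Leydig, Sertoli, macrophage, endothelial and unnamed). Rows are read along a gene, not between genes. In A0 and A10 each kinase is highest in an ST-like column, but not every ST-like column is high for it. In A0, Tssk5 is at 2.59 CPM in ST-like cluster 10 and Tssk4 at 32.8 CPM in ST-like cluster 9. B0 is low outside unnamed clusters 15 and 17, and BA10 is highest in its ST-like cluster 21, although Tssk6 is only at 17.4 CPM there.

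UMIs of several kinases were found together in most control ST-like cells, and the part of free RNA among them was not tested. After thinning to 2985 UMIs, at least 3 of the 6 were found in 95.3% of ST-like cells of A0 (94.7% to 95.9%, exact binomial interval) and 94.1% of those of A10 (93.4% to 94.7%). Among SPC-like cells the share was 26.5% in A0 and 26.2% in A10. It was uneven in A0, at 63.6% in cluster 4, whose SPC and ST scores were near a tie, and 55.5% in cluster 6. In the other SPC-like clusters of A0, 0, 1, 5 and 7, it was 4.17%, 1.13%, 16.4% and 19.9%. Unthinned, the shares were 100% of ST-like cells in both libraries and 76.5% (A0) and 74.9% (A10) of SPC-like cells, so the thinned values are limited by depth and the contrast between the classes is smaller without thinning.

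Across 47 units of cluster and library with at least 50 cells, the log2 levels of Tssk2 and Tssk3 were most alike (Pearson r = 0.984), and those of Tssk5 and Tssk6 least (r = 0.482). The neighbours Tssk1 and Tssk2 had r = 0.958. These units share libraries and the contrast of germ with somatic cells, so the values are a description. Among 6643 genes of at least 10 CPM in A0, the gene most like Tssk1 was 1700013F07Rik (r = 0.981), followed by Ropn1 and Spaca7. Tssk2 was most like Tmem247 (0.997), then Lrrc18 and Znrf4, and Tssk3 most like Spert (0.993), then 2610318N02Rik and 1700003F12Rik. Tssk4 was most like Tmem225 (0.995), then Spaca3 and Krt88. Tssk5 had the weakest likeness, to Itgad (0.953), Spam1 and Lurap1. For Tssk6 they were 1700012A03Rik (0.995), Tppp2 and Spem1.

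The comparison of A10 with A0 asked what AOS did without busulfan. All 6 kinases were slightly lower in A10. The log2 ratios of A10 over A0 were -0.19 for Tssk1 (-0.20 to -0.17), -0.23 for Tssk2 (-0.24 to -0.22), -0.16 for Tssk3 (-0.18 to -0.14), -0.18 for Tssk4 (-0.20 to -0.15), -0.22 for Tssk5 (-0.29 to -0.15) and -0.06 for Tssk6 (-0.07 to -0.04). These ratios are plain ratios of CPM, whereas counts past a fold and medians over genes were made with 1 CPM added. None of the 6 was 2-fold lower or higher, against 0.111% of the 9024 genes tested, a gene being tested where 5% or more of the cells of A0 or of A10 held it, and likewise for other pairs. The median of the 6 was -0.18, and that of all genes -0.03. Ratios of the 6 remained below 0 under every alternative run on all cells.

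Within the 15 clusters that held at least 50 cells of both control libraries, Tssk2 and Tssk3 were lower in A10 in 13 clusters each, Tssk4 and Tssk5 in 12, Tssk1 in 11 and Tssk6 in 7. Beyond counting error Tssk2 was lower in 13, Tssk1 in 11, Tssk3 in 9, Tssk4 in 7, Tssk6 in 6 and Tssk5 in 4 clusters, while Tssk6 was higher in 6 and Tssk1, Tssk4 and Tssk5 in 1 each. Tssk1 was higher in A10 in cluster 9 (log2 0.15) and lower in cluster 7 (-0.39). Tssk6 was lower in cluster 11 (-0.57) and higher in cluster 5 (0.32), and its median over clusters was 0.01. Over ST-like cells together, the ratios were -0.14 for Tssk1, -0.17 for Tssk2, -0.10 for Tssk3, -0.14 for Tssk4, -0.12 for Tssk5 and 0.01 for Tssk6. Over all cells, all 6 late spermatid genes (Prm1, Prm2, Prm3, Tnp1, Tnp2, Odf1) had ratios above 0, from 0.05 for Odf1, a sperm tail gene, to 0.43 for Prm1, and none passed 2-fold. A CPM level of one gene depends on the others, and with the 50 most abundant genes left out the median of the kinases was -0.16.

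The comparison of B0 with A0 asked what busulfan alone did, and every kinase was lower. Tssk4 was 5.32-fold lower (4.97 to 5.70) and Tssk5 4.71-fold lower (3.98 to 5.61). Tssk1 was 8.16-fold lower (7.81 to 8.54) and Tssk2 14.4-fold lower (13.8 to 15.2). Tssk3 was 16.6-fold lower (15.2 to 18.2), and Tssk6 492-fold lower (333 to 760). With 1 CPM added, unlike in these plain folds, the log2 ratios ran from -7.94 to -2.05 over all cells. On that scale the falls were larger with cells thinned to equal depth. The thinned ratios were -3.34 for Tssk4, -2.91 for Tssk5, -4.13 for Tssk1, -5.01 for Tssk2, -5.14 for Tssk3 and -8.43 for Tssk6. The folds rose in the order in which the kinases were highest along the control pseudotime, with Tssk5 and Tssk4 at one end and Tssk6 at the other. Along the first principal component they did not follow the order of the peaks, since Tssk3 and Tssk6 were then highest in bin 8, before Tssk2 in bin 9 and Tssk1 in bin 10.

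All 6 were at least 2-fold lower, against 23.3% of 11154 genes tested. Their median log2 ratio was -3.42, while the median of all genes was 0.32, and only 0.036% of genes had a lower ratio than Tssk6. The loss of the ST-like cells themselves, from 54.5% to 5 cells, moved with these values, and the part of lower RNA per cell was not tested. Among cells at the common limit the ratios of Tssk1, Tssk2, Tssk3 and Tssk6 were still past 2-fold, with -1.45, -2.18, -2.42 and -7.61 (4 of 6, against 10.6% of 10773 genes), whereas Tssk4 was at -0.87 and Tssk5 at -0.67. The limit also changed the mix of B0 cells. Of the 448 kept, 333 (74.3%) were of unnamed cluster 15, which was 504 of the 4659 B0 cells and held most of the B0 UMIs of Tssk1 to Tssk5.

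What remained of the kinases in B0 lay mostly in unnamed cluster 15. Its 504 B0 cells held 85.7% of the B0 UMIs of Tssk1, 84.8% of Tssk2, 84.1% of Tssk3, 83.3% of Tssk4, 84.4% of Tssk5 and 48.0% of Tssk6. Levels there were 272 CPM for Tssk1, 225 for Tssk2, 68.3 for Tssk3, 115 for Tssk4, 19.2 for Tssk5 and 1.94 for Tssk6. Outside the cluster B0 held 14.7 CPM of Tssk1 and 0.680 CPM of Tssk6, so Tssk6 was scarce both inside and outside it. The small unnamed cluster 17 (56 B0 cells, led by Dcn and Gsn) also held the kinases, with 95.7 CPM of Tssk1, 102 of Tssk2, 42.3 of Tssk3 and 60.1 of Tssk4, from 19 to 46 UMIs each. It made up 2.19% of the B0 UMIs of Tssk1 and 3.78% of those of Tssk3, and had no Tssk6 UMI. Its B0 cells also carried all 10 SPC markers (2669 CPM in sum) and all 10 ST markers (645 CPM).

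The cluster stayed unnamed because its leading genes went against its germ cell markers: haemoglobin genes (Hba-a1, Hbb-b2, Hbb-b1) led it, with genes such as Rhox8 and Aard, which Sertoli cells express. Its B0 cells carried all 10 SPC markers (2133 CPM in sum), all 10 ST markers (1464 CPM), all 7 Sertoli markers (834 CPM) and all 6 Leydig markers (515 CPM). Of the A0 clusters its B0 profile was most like SPC-like cluster 5 (Pearson r = 0.914 over 6637 genes), with cluster 4 next (0.900). In those 2 A0 clusters Tssk1 stood at 244 and 651 CPM and Tssk6 at 79.6 and 101 CPM. The part of doublets or mixed droplets in this cluster was not tested, and the doublet caller marked 4 cells in all of B0.

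Somatic cells, which should lack the kinases, held them at low levels in B0, although 8 of its 25 Tssk6 UMIs lay there. Over its 3628 Leydig-, Sertoli-, macrophage- and endothelial-like cells Tssk1 was at 9.87 CPM, Tssk2 at 9.36, Tssk3 at 2.55, Tssk4 at 5.92, Tssk5 at 0.828 and Tssk6 at 0.510. Of the 423 Prm1 UMIs of these cells, 363 lay in 1 macrophage-like cell. After thinning, 1.93% of these cells held Tssk1 and 0.138% held Tssk6, at a median of 4037 UMIs per cell before thinning. The somatic level was uneven. Tssk1 was at 27.4 CPM in macrophage-like cluster 16, 5.64 in Leydig-like cluster 25, 4.81 in endothelial-like cluster 20 and 1.27 in Sertoli-like cluster 26. Cluster 16 of B0 also held 511 CPM of ST markers, 184 of them from Prm1. Its Leydig markers (16364 CPM) exceeded its macrophage markers (2971 CPM). In SPG-like cluster 23 of B0 Tssk1 was at 11.4 CPM (5.90 to 19.9) and in SPC-like cluster 22 at 0.713 CPM (0.018 to 3.97), and whether free RNA gave these UMIs was not tested. The few somatic-like cells of the controls held far more Tssk1, at 489 CPM in 17 cells of A0 and 307 CPM in 10 cells of A10. The source of those UMIs was not tested either.

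The comparison of BA10 with B0 asked whether AOS after busulfan changed the levels that busulfan left. Over all cells each kinase was higher in BA10, but among cells at the common limit 5 of the 6 were lower. The log2 ratio of BA10 over B0 was 0.93 for Tssk1 (0.86 to 1.00), 0.85 for Tssk2 (0.77 to 0.92), 0.77 for Tssk3 (0.64 to 0.91), 0.77 for Tssk4 (0.67 to 0.88) and 0.49 for Tssk5 (0.23 to 0.76). Tssk6 was 10.8-fold higher (7.30 to 16.8). With 1 CPM added, Tssk6 alone passed 2-fold, 1 of 6 against 17.8% of 11147 genes tested. This count depended on the scaling: all 6 passed with each cell counted equally or thinned (log2 1.47 to 3.21), 5 when centred on the median gene and 0 with 10 CPM added. At the common limit Tssk6 passed higher and Tssk5 lower (-1.02), where 106 of 10652 genes were higher and 1758 lower. Over all cells the median of the 6 was 0.80, and that of all genes -0.26.

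At the common limit the ratios were -0.67 for Tssk1, -0.80 for Tssk2, -0.79 for Tssk3, -0.80 for Tssk4 and -1.11 for Tssk5, while Tssk6 was 4.59-fold higher in BA10 (2.81 to 8.06). The B0 side of the Tssk6 ratio was 2.33 CPM, from 16 UMIs in 7 cells. Its BA10 side was 10.7 CPM, or 4.31 CPM without 31 ST-like cells described below. The common limit kept all 3778 BA10 cells but 448 of B0, and 333 of those 448 (74.3%) were cells of cluster 15, the cluster that held most of the kinase UMIs. Within cluster 15, with 416 BA10 and 504 B0 cells, Tssk1 to Tssk5 were lower in BA10, with ratios of -0.35, -0.54, -0.71, -0.37 and -0.89. For Tssk6 in this cluster the ratio was 0.55, with an interval from -0.55 to 1.72 that includes 0. Outside cluster 15 all 6 were higher in BA10, with ratios of 3.28 for Tssk1, 3.12 for Tssk2, 2.99 for Tssk3, 2.89 for Tssk4, 2.73 for Tssk5 and 4.06 for Tssk6. The direction for Tssk1 to Tssk5 thus changed with which B0 cells entered, and an effect of AOS and the lower UMI limit of the B0 library cannot be told apart for them.

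**Figure D4:**
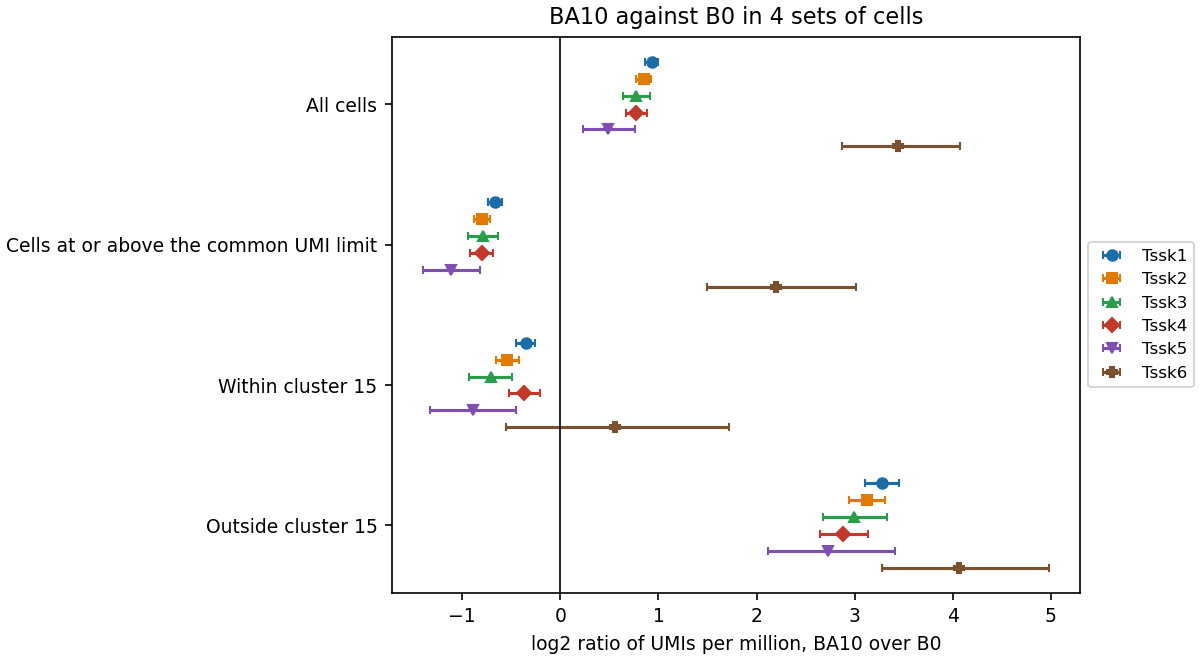
Plain log2 ratio of BA10 over B0 for each kinase (x axis, log2 of the CPM ratio, with 95% counting intervals) in all cells, in cells at the common UMI limit, within cluster 15 and outside cluster 15. Tssk1 to Tssk5 lie above 0 in all cells, below 0 at the common limit and within cluster 15, and near 3 outside cluster 15, while Tssk6 is above 0 in all but its cluster 15 interval, which spans 0.

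In BA10 the kinases lay mainly in clusters 21, 24 and 15. ST-like cluster 21, with 399 cells, held 46.8% of the BA10 UMIs of Tssk1, 54.9% of Tssk2, 41.9% of Tssk3, 47.2% of Tssk4 and 70.9% of Tssk5 but 14.3% of Tssk6. Its ST score of 0.320 was not far above its SPC score of 0.265. In BA10 it held 3205 CPM of ST markers and 1772 CPM of SPC markers. SPC-like cluster 24, with 1417 cells, held 26.3% of Tssk1, 16.4% of Tssk2, 24.6% of Tssk3 and 28.8% of Tssk4, at lower levels (120 CPM for Tssk1, 58.9 for Tssk2, 25.7 for Tssk3 and 51.1 for Tssk4). The small Leydig-like cluster 19 of BA10 had like levels, with 122 CPM of Tssk1 and 48.4 of Tssk4, but it also carried SPC markers (1861 CPM in sum) and ST markers (1566 CPM). Tssk1 UMIs per 1000 Prm1 UMIs were 3058 in cluster 24 and 352 in cluster 19, so the levels of the 2 clusters did not keep 1 ratio to Prm1. Of the 671 Prm1 UMIs of cluster 19, 364 lay in 1 cell, so its ratio depends on that cell. Unnamed cluster 15, with 416 cells, held 11.1% of Tssk1, 10.2% of Tssk2, 9.49% of Tssk3, 11.9% of Tssk4 and 10.2% of Tssk5, at 213 CPM for Tssk1. Cluster 21 reached 786 CPM for Tssk1, 726 for Tssk2, 161 for Tssk3, 308 for Tssk4, 62.9 for Tssk5 and 17.4 for Tssk6. Prm1 there was at 101 CPM. In SPC-like clusters 18 and 22 of BA10 Tssk1 was at 13.9 and 12.3 CPM, far below cluster 24. No somatic cluster of BA10 gave a clean background, since macrophage-like cluster 16 (63 cells, 85.3 CPM of Tssk1) held more SPC markers (2261 CPM) and ST markers (1275 CPM) than macrophage markers (1006 CPM).

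Tssk6 of BA10 sat elsewhere. The 31 ST-like cells of BA10 that fell outside cluster 21, most of them in the control ST-like clusters 13, 9 and 8, were 31 of 3778 cells but held 60.0% of its Tssk6 UMIs and 76.4% of its Prm1 UMIs. In these 31 cells Tssk6 was at 990 CPM and Prm1 at 42373 CPM, and all 31 held both. They also held 8.55% of the Tssk2 UMIs, 11.9% of the Tssk3 UMIs and 4.32% of the Tssk1 UMIs of BA10. Only 1 of the 31 had a barcode that also occurred in A0 or A10. Left out, in a step chosen after the data were seen, they lowered BA10 Tssk6 from 10.7 to 4.31 CPM, and the log2 ratio to B0 from 3.44 to 2.13 (1.54 to 2.77). The other 5 ratios stayed between 0.50 and 0.87 without them.

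Against A0, all 6 kinases of BA10 were at least 2-fold lower, where 18.2% of 10534 genes tested were. Tssk4 was 3.11-fold lower (3.02 to 3.21), Tssk5 3.35-fold (3.10 to 3.64), Tssk1 4.29-fold (4.21 to 4.37), Tssk2 8.03-fold (7.87 to 8.19) and Tssk3 9.71-fold (9.37 to 10.1). Tssk6 was 45.4-fold lower (42.6 to 48.4). The median log2 ratio of the 6 was -2.54, against 0.38 over all genes, and the ST-like share was 11.4% against 54.5%. BA10 and B0 are both set against the same A0 library here, so the 2 sets of folds are not independent.

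Within ST-like cells the kinases of BA10 differed in their ratios to A0. Relative to A0, Tssk5 was 1.41-fold higher (1.28 to 1.55), and Tssk4 was higher by 0.20 on the log2 scale (0.14 to 0.26). Tssk1 was 1.24-fold lower (1.21 to 1.27), Tssk2 1.98-fold lower (1.94 to 2.03), Tssk3 2.79-fold lower (2.66 to 2.94) and Tssk6 9.41-fold lower (8.74 to 10.1). The Tssk6 value of the class (84.0 CPM, against 791 in A0) was carried by the 31 cells outside cluster 21, which held 586 of its 726 UMIs, while the 399 cells of cluster 21 were at 17.4 CPM. Of the 6, Tssk3 and Tssk6 passed 2-fold lower, against 10.7% of 9732 genes tested. The median of all genes was 0.52, and relative to it Tssk4 turned to -0.32, Tssk5 to -0.03, and Tssk2 also passed 2-fold lower (-1.50), so the directions of Tssk4 and Tssk5 depend on the scaling. The sequence from Tssk5 to Tssk6 was that of the control pseudotime but not that of the first principal component, and the 2 classes were made of different clusters: 399 of 430 BA10 cells were cluster 21, and the A0 cells were clusters 2, 3, 8, 9, 10, 12, 13 and 14.

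A closer pair of clusters gave ratios nearer to each other, except for Tssk6. The A0 cluster most like BA10 cluster 21 was cluster 2 (Pearson r = 0.954 over 6637 genes, with cluster 4 next at 0.939), a match made after the data were seen and without the kinases. Against cluster 2, cluster 21 had log2 ratios of -0.29 for Tssk1, -0.35 for Tssk2, -0.32 for Tssk3, -0.40 for Tssk4 and -0.65 for Tssk5, with 1 CPM added. For Tssk6 the levels were 17.4 and 111 CPM, 6.07-fold lower in BA10, or -2.60 on the log2 scale. Against cluster 4 the first 5 turned to 0.27, 0.41, 0.18, 0.10 and 1.05, while Tssk6 stayed at -2.47.

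Of the 6 late spermatid genes, Prm1, Prm2, Tnp1 and Tnp2 were lower with Tssk6 in that pair, whereas Prm3 was higher (901 against 639 CPM, log2 0.50) and the tail gene Odf1 did not differ beyond counting error (134 against 128 CPM, log2 0.07, -0.05 to 0.18). Prm1 was at 101 CPM in cluster 21 and 2170 in A0 cluster 2 (-4.41), Prm2 had -5.00, Tnp2 -3.54 and Tnp1 -1.60. Acrosome and scaffold genes did not fall as far: Acrv1, which codes for an acrosome matrix protein, had -0.53, Spaca1 -0.44, Tsks -0.34 and Tsacc, the TSSK6 co-chaperone, 0.35. These smaller differences depended on the match. Against A0 cluster 4, Acrv1 turned to 0.08, Spaca1 to 0.07 and Tsks to 0.41, while Prm3 was at 1.74 and Odf1 at 0.52. Against A10 cluster 2, Prm3 was at 0.09 and Tsacc at 0.05. Prm1 stayed far lower, at -4.32 against A0 cluster 4 and -5.01 against A10 cluster 2. In A0 cluster 2, Tssk6 and Prm1 stood in a ratio of 51.0 Tssk6 UMIs per 1000 of Prm1, inside the 44.1 to 79.4 of the SPC-like clusters. The part of free RNA in the Tssk6 and Prm1 of A0 cluster 2 was not tested.

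The number of kinases per cell was compared at equal depth. At least 3 kinases were found in 2.25% of B0 cells (1.85% to 2.72%), or 105 cells, 89 of them (84.8%) in cluster 15. In BA10 the share was 12.1% (11.1% to 13.2%), or 459 cells, 56.6% of them in cluster 21, 15.5% in cluster 24 and 12.6% in cluster 15. Within cluster 21 the share was 65.2% (60.3% to 69.8%), and in Leydig-like cells of B0 it was 0.102%. Within cluster 15 the share was 17.7% in B0 (14.4% to 21.3%) and 13.9% in BA10 (10.8% to 17.6%), with intervals that overlap, so the higher share of BA10 over all cells was not seen there. Unthinned, the shares of all cells were 5.62% in B0 and 32.3% in BA10.

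**Figure D5:**
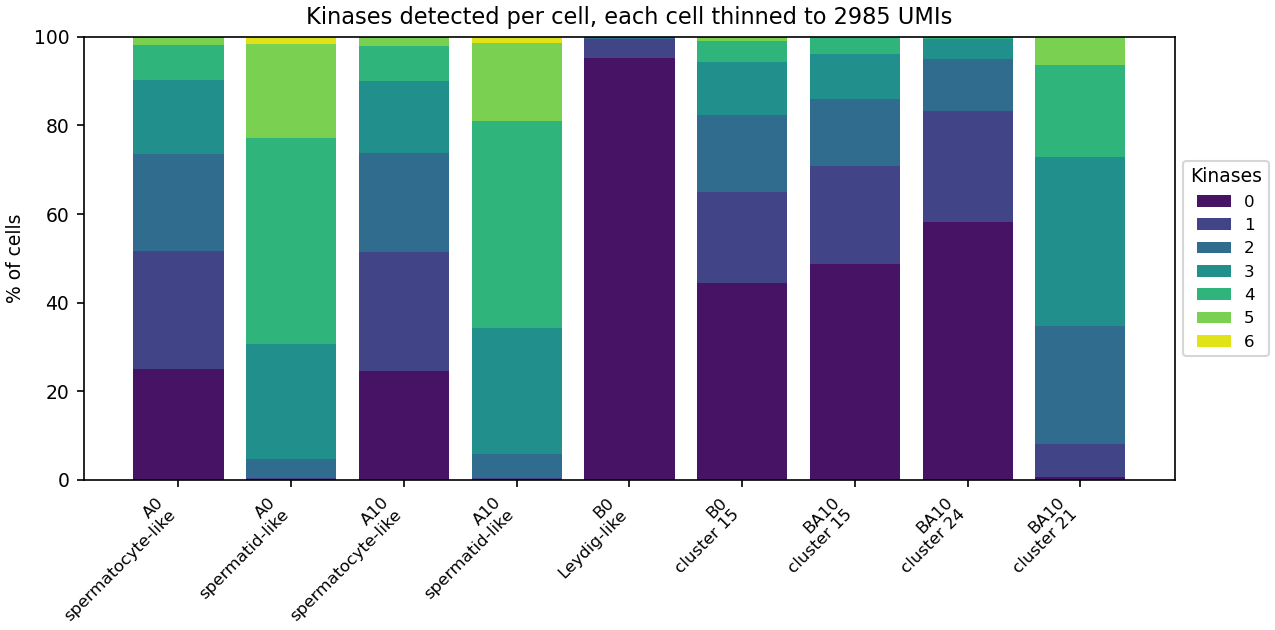
Share of cells (percent, stacked bars from 0 to 100) with 0 to 6 of the kinases after thinning every cell to 2985 UMIs, for SPC-like and ST-like cells of A0 and A10, Leydig-like cells and cluster 15 of B0, and clusters 15, 24 and 21 of BA10. Cells with at least 3 kinases are 95.3% of ST-like cells in A0, 65.2% of BA10 cluster 21 and 17.7% of B0 cluster 15.

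Genes that work with the kinases changed less evenly than the kinases themselves. Of 10 partners and substrates, 6 were at least 2-fold lower in B0 than in A0 and 1 was higher, where 23.3% of all genes were lower and 39.2% higher. The scaffold gene Tsks was lowest, from 373 to 29.3 CPM (log2 -3.63), and the constitutive chaperone gene Hsp90ab1 was highest, from 170 to 891 CPM (2.38). In BA10 over B0, 5 of the 10 were at least 2-fold higher, led by Spag16, a sperm axoneme gene (1.78), and 1 was lower, Hsp90ab1 (-1.89), where 17.8% of all genes were higher and 35.7% lower. At the common limit 0 of the 10 were higher and 0 lower, where 106 of 10652 genes were higher and 1758 lower. Against A0, BA10 had 2 of the 10 lower, with Tsks at -3.04, and 1 higher, H2afx at 1.30, shares near the 18.2% lower and 16.7% higher of all genes.

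For the somatic relatives of the kinases no difference from all genes is read from the counts. Of 17 kinases of the AMPK branch 10 passed the detection minimum in B0 or A0, 3 of them at least 2-fold higher in B0 (Mark4 at most, log2 2.38) and 2 lower (Brsk2 at most, -1.73), against 39.2% and 23.3% of all genes. In BA10 over B0, 1 of the 10 was higher, Hunk at 1.44, and 3 were lower, with Snrk at -2.35, against 17.8% and 35.7% of all genes. Of 8 other germ cell kinases, 4 were lower in B0 than in A0, with Dyrk4 lowest at -3.85, and 1 was higher, Gsk3a at 1.05, against 23.3% and 39.2% of all genes. In BA10 over B0, 2 of 7 of these passed 2-fold, both higher, Stk33 at most with 1.51, where 17.8% of all genes were higher. At the common limit 0 of 10 kinases of the AMPK branch and 0 of 7 other germ cell kinases were higher. There 2 of the AMPK branch and 1 of the others were lower, where 106 of 10652 genes were higher and 1758 lower.

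In B0 and in BA10 relative to A0, the median of the kinases lay between those of the acrosome and of the late spermatid genes. All 9 acrosome genes were at least 2-fold lower in B0, where 23.3% of all genes were, from -1.29 for Zpbp2 to -3.02 for Izumo1, the sperm protein of egg fusion. Their median of -1.68 was nearer 0 than the -3.42 of the kinases. All 6 late spermatid genes were lower too, against the same 23.3%, with a median of -7.34 and Prm2 lowest at -9.41. In BA10 over A0, 4 of 9 acrosome genes were 2-fold lower, where 18.2% of all genes were, with a median of 0.23 that lay near the 0.38 of all genes. In the same comparison all 6 late genes were lower with a median of -4.99, and the median of the kinases was -2.54. In BA10 over B0, 5 of 9 acrosome genes and 4 of 6 late genes were at least 2-fold higher, where 17.8% of all genes were. At the common limit 0 of 9 acrosome genes and 3 of 6 late genes were higher, and 2 of each list were lower. Of all genes, 106 of 10652 were higher there and 1758 lower. These counts thus changed with the cells that entered. The count of kinases is not set beside them, since it changed with the scaling too in this comparison. Median log2 ratios of BA10 over B0 were 0.80 for the kinases, 1.65 for the acrosome genes and 2.27 for the late genes over all cells. At the common limit they were -0.78, 0.14 and 0.89. Here the median of the kinases thus lay below those of both lists.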

How the data were processed

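The authors aligned reads to mm10 with Cell Ranger (version 2.2.0 in the submitters' processing notes) and deposited 1 table of 18419 genes by 27060 cells. Its values were the natural log of 1 plus UMIs per 10000 of the cell, as deposited by the authors after Seurat normalization. UMIs were recovered from them, and 100% of values above 0 were whole within 0.001. With 1 pooled library a group there was no test. CPM carry exact Poisson intervals, ratios exact conditional binomial intervals and shares Clopper-Pearson intervals, at 95% and for counting error only. UMIs were summed per library or cluster, 1 CPM was added for calls of 2-fold, and a gene counted as tested where 5% or more of the cells of one of the libraries held it. Cells were clustered in scanpy 1.11.5 (Python 3.11.15, numpy 2.4.6, scipy 1.17.1, igraph 0.11.9) from 2000 variable genes without the kinases, 30 principal components, 15 neighbours and Leiden resolution 1, with no alignment between libraries. Clusters were named from marker lists; one led by connective tissue genes was left unnamed after its genes were seen, and the root of the germ cell order was set after the data were seen. Doublets were kept: Scrublet, at an expected 6%, marked 8.06% of A0, 8.66% of A10, 1.27% of BA10 and 0.0859% of B0, where it hardly worked. Named genes were the 6 kinases, the highest and lowest of each list, and the 3 genes most like each kinase; markers, Prm1 and the genes set beside cluster 21 were named to describe clusters. The members and lists were chosen with earlier results of these data known. Depth per library was 25323535 to 150812974 UMIs. Scripts were tested on simulated data. Alternatives were other cell weights, UMI limits, thinning, pseudocounts, centring, gene sets and clusterings. RefSeq sequences covered 5 of the 6 kinases; a window lying inside an annotated exon was not printed.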

Additional observations from a re-analysis of the deposited data

Results flagged for a closer look

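Over all cells the kinases were lower in A10 than in A0 and higher in BA10 than in B0, and this difference between the 2 settings was not tested, since each setting is 1 pair of libraries. The log2 ratio of BA10 over B0 minus that of A10 over A0, with 1 CPM added, was 1.11 for Tssk1 (0.92 against -0.19), 1.07 for Tssk2 (0.84 against -0.23) and 0.90 for Tssk3 (0.74 against -0.16). It was 0.93 for Tssk4 (0.75 against -0.18), 0.64 for Tssk5 (0.43 against -0.21) and 2.61 for Tssk6 (2.56 against -0.06). At the common UMI limit the ratios of BA10 over B0 fell below 0 for Tssk1 to Tssk5, so that both settings then pointed the same way for these 5, and Tssk6 kept a ratio above 0 with busulfan. That Tssk6 ratio rested on 16 UMIs of B0, and 31 ST-like cells held 60.0% of the Tssk6 UMIs of BA10.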

How the results depend on the processing

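The median log2 ratio of the 6 kinases in A10 over A0 (-0.18) was -0.13 with each cell counted equally and -0.14 when thinned, and genes past 2-fold rose from 10 to 18 without the detection minimum. For B0 over A0 (-3.42) the median was -4.57 with cells equal, -4.57 when thinned, -1.81 at the common limit, -3.19 with 10 CPM added and -3.74 centred on the median gene. BA10 over B0 (0.80) turned to -0.78 at the common limit, and was 2.17 with cells equal, 2.16 when thinned, 0.69 with 10 CPM added and 1.06 when centred. BA10 over A0 (-2.54) was -2.30 with cells equal, -2.28 when thinned, -2.46 with 10 CPM added and -2.93 when centred. In ST-like cells, A10 over A0 (-0.13) was -0.17 at resolution 0.5 and -0.070 when centred. BA10 over A0 (-0.65) was -0.48 at resolution 0.5, -0.56 at resolution 2, -0.55 with 1000 variable genes and -1.16 when centred, and -0.38 against the nearest control cluster, an alternative chosen after the data were seen. The cause of these shifts was not tested. No paired analysis was possible because each group was 1 library, and for the same reason no replicate could be left out. The 448 B0 cells at the common limit, with 16 of the 25 Tssk6 UMIs of B0, set the precision there.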
